A study of Mus musculus with 2 samples.

Results

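The 9 genes described here are genes of neural stem cells, glial progenitors and oligodendrocytes, followed in 2 mouse libraries. All 9 were found among the 31253 genes of the table. They were chosen by symbol: Fabp7, Ptprz1, Bcan, Cspg4 and Olig1 as genes of stem cells and progenitors, and Gpm6b, Cnp, Mbp and Mag as genes of the later lineage and of myelin. In GRCm38 the former lie on chromosomes 10, 6, 3, 9 and 16, and the latter on chromosomes X, 11, 18 and 7, in the order given. One library came from mouse neural retinal progenitor cells (mNRPCs) of the strain C57BL/6, derived from adult neural retina and cultured for 24 passages, and is also called the culture. By the study's methods, the culture medium contained N2 and B27 supplements, basic fibroblast growth factor (bFGF) and CHIR99021, a blocker of glycogen synthase kinase 3. The other library was from C57BL/6 retina tissue, with no treatment named and no age given in its labels. Each group had 1 library, so the differences have no replicate check, no test was run, and the errors given are estimates of counting error.

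In the brain, radial glia act as neural stem cells and express the lipid carrier Fabp7 and the phosphatase Ptprz1. Oligodendrocyte precursors carry the proteoglycan Cspg4, also called NG2, and depend on the transcription factors Olig1 and Olig2 to mature into cells that wrap axons in myelin. Mbp and Mag are proteins of the myelin sheath, and Cnp is an enzyme of its cytoplasmic channels. The mouse retina is not myelinated, and the axons of its ganglion cells gain myelin only in the optic nerve behind the eye. Müller cells are its main resident glia and share several genes with radial glia.

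Of the 9 genes, only Gpm6b and Cnp were detectable in mNRPCs, that is, above the level of 3 estimated fragments. Retina had 6 detectable genes, these 2 and Ptprz1, Bcan, Cspg4 and Mbp. Fabp7, Olig1 and Mag were detectable in neither library. The values are FPKM, fragment numbers scaled to transcript length and library size, summed over the RefSeq transcripts of a gene. Over the 9 genes FPKM summed to 59.6 in mNRPCs, 74.8% of it from Gpm6b, and to 133.0 in retina, 85.3% of it from Gpm6b.

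The mNRPC library held an estimated 6.58e+06 fragments and the retina library 4.97e+06, and the limit of 3 fragments was set for each gene from its length. Whole-library FPKM summed to 616860 and 432256. In retina, 8 rod genes summed to 23900 FPKM and 10 genes of astrocytes and Müller cells were each at 1 FPKM or more. In mNRPCs the rod genes summed to 11.2 FPKM. Of 12 genes of radial glia and neural stem cells 9 reached 1 FPKM in the culture and 10 in retina. In libraries of this kind, fewer cells of a type and less RNA per cell cannot be told apart.

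Higher or lower in mNRPCs is written where the log2 of (mNRPC FPKM + 1)/(retina FPKM + 1), called the log2 ratio, was at least 1 in size. By this rule 1 of the 9 genes, Cnp, was higher, 4 (Ptprz1, Bcan, Gpm6b and Mbp) were lower, and 4 lay between. Across the 13780 genes with at least 1 FPKM in a library, 24.46% were higher and 29.97% were lower. The 5 genes called were also the ones that reached 1 FPKM, and with an added 1 a gene under that level in both libraries cannot pass in either direction. The median log2 ratio of the 9 genes was −0.40, against −0.12 for the 13780 genes and 0 for all genes in the table.

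**Figure D1:**
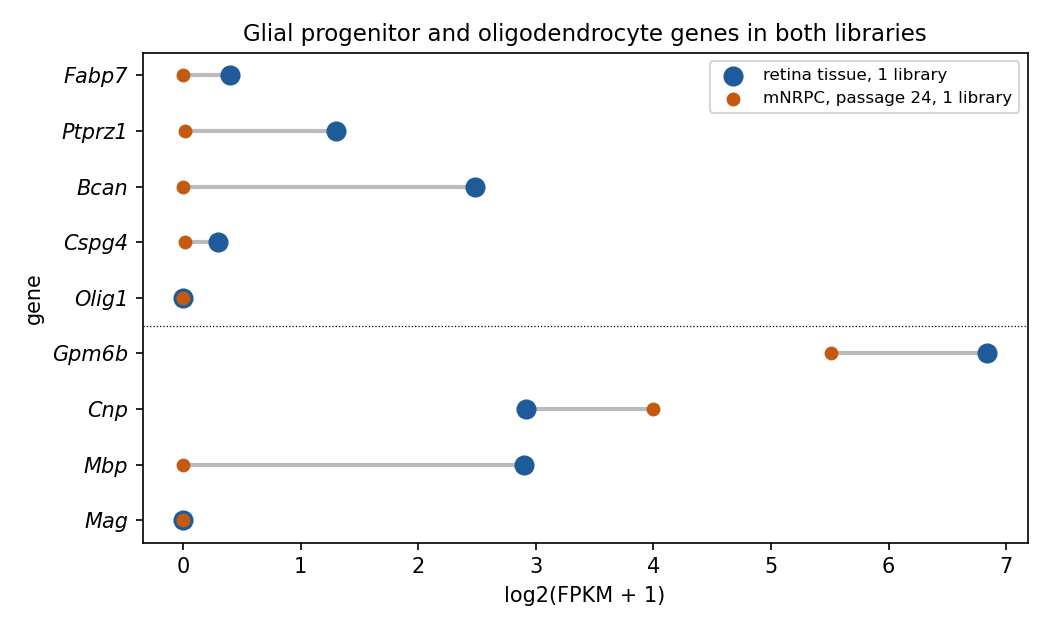
Level of each gene as log2(FPKM + 1) (x axis) in the mNRPC library (small orange points) and the retina library (large blue points), with genes of stem cells and progenitors above the dotted line and genes of the later lineage and myelin under it. Only Gpm6b and Cnp lie away from 0 in mNRPCs, and Cnp is the gene with the higher mNRPC value.

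The genes of stem cells and progenitors were near or at 0 in mNRPCs. Ptprz1, a receptor phosphatase whose secreted form is the matrix proteoglycan phosphacan, was at 0.0146 FPKM in the culture (0.776 fragments) against 1.46 FPKM in retina (58.4 fragments). The retina value of Ptprz1 was 25.8-fold the mNRPC limit of 3 fragments, a figure without the counting error of the retina value. Its retina signal lay mainly on the curated full-length transcript (38.8%) and on 1 predicted transcript (38.7%) of 6 listed. When only curated rows were kept, the log2 ratio of Ptprz1 went from −1.28 to −0.64, inside the 2-fold range.

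Bcan, the gene of brevican, a chondroitin sulfate proteoglycan of the brain matrix, was listed at 0 in mNRPCs but reached 4.58 FPKM in retina, an estimated 71.6 fragments. A signal of 3 fragments of Bcan would have been 0.145 FPKM in the mNRPC library. In retina 3 of its 4 transcripts held 41.4%, 32.4% and 24.7% of the signal. Each of the 4 transcripts was listed at 0 in mNRPCs, so the log2 ratio of −2.48 is set by the added 1 and is no fold.

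Cspg4, which marks oligodendrocyte precursors and also the pericytes of small vessels, was low in both libraries. It was at 0.0151 FPKM in the culture (0.805 fragments) against 0.227 FPKM in retina (9.18 fragments). The retina value was 4.05-fold the mNRPC limit of 3 fragments. That figure leaves out the counting error of the few retina fragments, so it is no lower bound. The log2 ratio of −0.27 stayed inside the 2-fold range because both values are small beside the added 1. Of 10 pericyte and mural genes, 2 reached 1 FPKM in the culture against 4 in retina, with sums of 15.1 and 436.0 FPKM, and 2 were higher, 2 lower and 6 between. The retina sum was mostly Vtn, at 420.2 FPKM, and the mNRPC sum mostly Acta2, the smooth muscle actin gene, at 10.1 FPKM there and 4.39 in retina. Pdgfrb, a receptor of pericytes but not of these cells alone, was at 4.49 FPKM in the culture against 1.24 in retina. Rgs5 was listed at 0 in mNRPCs but reached 8.16 FPKM in retina. Abcc9, Kcnj8 and Higd1b were also listed at 0 in mNRPCs, with 0.905, 0.142 and 0.274 FPKM in retina, the last 2 under 3 estimated fragments. Which cells gave the Cspg4 signal of retina was not tested.

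Fabp7, the brain lipid-binding protein of radial glia, was listed at 0 in mNRPCs, with 0.316 FPKM in retina. The retina value came to 1.26 fragments, under the limit of 0.751 FPKM, so Fabp7 was not detectable at this depth in either library. Olig1 was listed at 0 in both. Its limits were 0.211 FPKM in the culture against 0.279 in retina. An exon of an antisense gene overlaps Olig1 over 157 bases, and the strand of the reads is not stated.

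Close relatives of Fabp7 had clear signal. Fabp5, which carries fatty acids in skin and in neural precursors, was at 383.6 FPKM in the culture against 26.0 in retina, a log2 ratio of 3.83. Fabp3, the heart form, was at 0.846 and 22.7 FPKM (−3.68). Fabp5 made up 99.8% of the FPKM of these 3 carriers in mNRPCs and 53.0% in retina, where Fabp3 made up 46.3% and Fabp7 0.644%. Ptprg, the phosphatase most like Ptprz1, was at 15.1 FPKM in the culture against 6.93 in retina, and its log2 ratio of 1.02 was close to the threshold. Olig2 was listed at 0 in both libraries, and Olig3 was listed at 0 in mNRPCs but reached 0.399 FPKM in retina.

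Gpm6b was the most abundant of the 9 genes. It encodes a membrane glycoprotein related to the neuronal glycoprotein Gpm6a, and it is expressed in both glia and neurons. Gpm6b was at 44.6 FPKM in the culture against 113.4 FPKM in retina, which placed it above 82.2% of the mNRPC genes and 95.9% of the retina genes with at least 1 FPKM. The retina level was 2.55-fold higher (95% counting interval 2.35 to 2.75) and the log2 ratio was −1.33. Gpm6a was at 0.135 FPKM in the culture (2.86 fragments) against 171.5 FPKM in retina, so it was under Gpm6b in mNRPCs and over it in retina.

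The difference in Gpm6b was not even across its transcripts. In the GENCODE M21 annotation of GRCm38, 9 of the 10 RefSeq transcripts in the table begin at 1 of 2 starts that are 105.8 kb apart on chromosome X, on the plus strand. The upstream exon, chrX:166238911-166239136, begins 3 of them, and the downstream exon, chrX:166344692-166345081, begins 6. The remaining transcript is a predicted one with no place in the annotation. The upstream exon adds almost no coding sequence, while the downstream exon supplies a start codon of its own, shown in capitals, and is joined in 3 of its 6 transcripts by an optional coding exon. The 3′ end also differs, since the last coding exon has 78 or 147 bases before the stop codon. These 4 coding stretches are shown because the coding sequences differ by them, though transcripts that differ outside the coding sequence share them. The 147 bases also lie after the stop codon in transcripts whose coding sequence ends with the 78 bases. They therefore separate the ends as coding sequence only, not by their presence in a transcript. They are written 5′ to 3′ as read from the GENCODE transcripts.
Downstream first coding exon, chrX:166345021-166345081: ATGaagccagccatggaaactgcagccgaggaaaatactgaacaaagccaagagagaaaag
Optional coding exon, chrX:166353565-166353684: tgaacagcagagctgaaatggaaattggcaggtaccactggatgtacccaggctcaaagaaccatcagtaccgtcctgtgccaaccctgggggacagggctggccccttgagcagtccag
Last coding exon of 78 bases, chrX:166385391-166385468: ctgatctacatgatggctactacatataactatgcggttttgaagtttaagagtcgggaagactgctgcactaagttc
Last coding exon of 147 bases, chrX:166386952-166387098: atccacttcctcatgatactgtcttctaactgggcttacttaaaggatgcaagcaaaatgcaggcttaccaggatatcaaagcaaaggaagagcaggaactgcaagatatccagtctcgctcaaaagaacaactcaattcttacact

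The 3 upstream-start transcripts were at 16.3, 13.1 and 14.5 FPKM in the culture against 37.1, 18.3 and 10.1 FPKM in retina. Summed, these were at 43.9 FPKM in the culture against 65.6 in retina, a log2 ratio of −0.57 that lies inside the 2-fold range. The 6 downstream-start transcripts ranged from 0.00206 to 0.0418 FPKM in mNRPCs and from 2.80 to 11.7 FPKM in retina. Their sum was 0.0851 FPKM in the culture (2.55 fragments) against 37.1 FPKM in retina (663 fragments), as the program shared out the reads of exons that both starts use. So 98.5% of the Gpm6b signal of mNRPCs was on upstream-start transcripts, against 57.8% in retina, where 32.7% was on downstream-start transcripts and 9.55% on the unplaced one. With the deposited values, the upstream-start transcripts alone did not pass the threshold, although their counting interval, a ratio of 0.613 to 0.731 of the retina level, lay under 1. After rescaling the libraries to a common sum of FPKM, the upstream-start transcripts were also past the threshold, at −1.08.

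The bases that separate the starts are few, because the transcripts share their later exons. Computed from the transcript FPKM, the exon length and the depth, 47.6 fragments would fall on the upstream first exon in mNRPCs and 0.218 on the downstream one. In retina these numbers were 53.8 and 71.8. If mNRPCs had used the downstream start in the retina proportion of placed transcripts, 36.1%, an estimated 40.7 fragments would have fallen on its first exon. Reads on the first exons were not counted, so these numbers restate the transcript shares and are no separate check of start use. Shares of single transcripts are estimates, since the authors' program divides a read among all transcripts it fits. The ends differed less than the starts. Transcripts with the last coding exon of 147 bases held 37.0% of the placed signal in mNRPCs and 52.2% in retina, and the optional coding exon was in 31.4% of the downstream-start signal of retina.

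**Figure D2:**
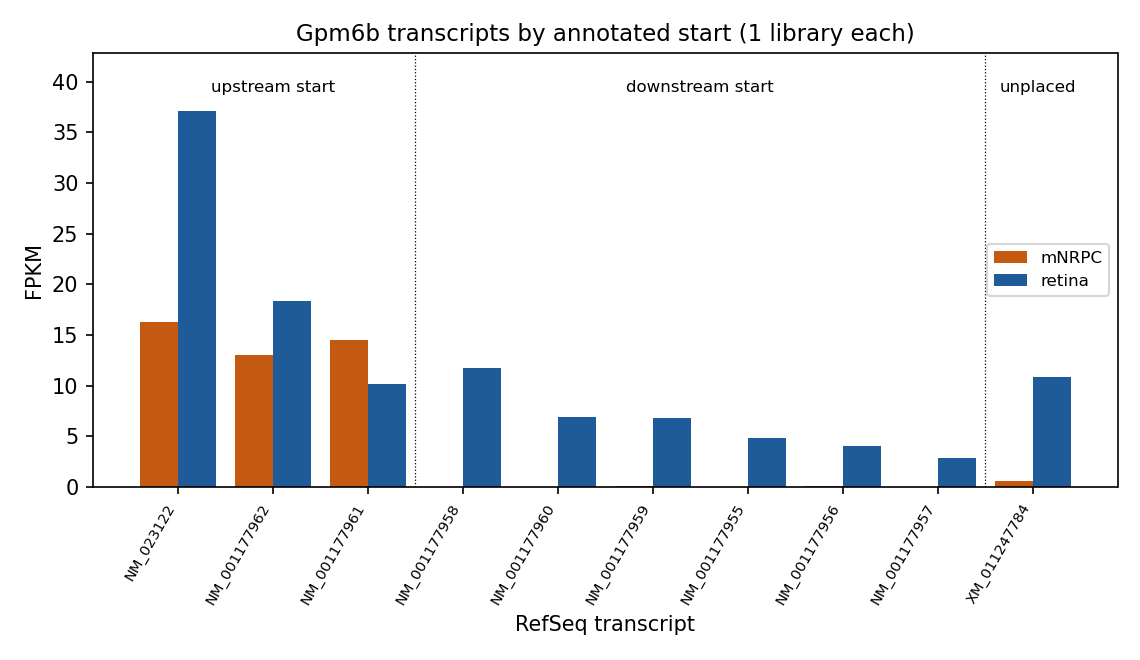
FPKM (y axis) of each RefSeq transcript of Gpm6b (x axis) in the mNRPC library (orange bars) and the retina library (blue bars), grouped by annotated start, with 1 library each and no error bars. Orange bars stand at the 3 upstream-start transcripts, at 13.1 to 16.3 FPKM, and the 6 downstream-start transcripts have visible bars in retina alone. The unplaced transcript stands at 0.603 FPKM in mNRPCs and 10.8 in retina.

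Müller glia and neurons are both known to express Gpm6b, and genes of both were lower in mNRPCs. All 10 genes of the astrocyte and Müller list were lower, with sums of 33.5 FPKM in the culture against 1277 in retina, and Glul made up most of both. All 8 genes of ganglion cells and axons were lower as well, with sums of 4.76 and 433.2 FPKM. Their part in the level of Gpm6b, Ptprz1 or Bcan was not tested.

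Cnp, the phosphodiesterase of oligodendrocytes that is also present at lower levels in other cells, was the only one of the 9 genes with more signal in mNRPCs. It was at 14.97 FPKM in the culture (232 estimated fragments) against 6.53 FPKM in retina (76.5 fragments). The mNRPC level was 2.29-fold higher (95% counting interval 1.76 to 3.01), with a log2 ratio of 1.08. The main curated transcript held 81.4% of the mNRPC signal and nearly all of the retina signal, and a predicted transcript added 2.52 FPKM in mNRPCs. The call depended on the processing. With curated rows only the log2 ratio was 0.84, and with the libraries rescaled to a common sum it was 0.65, both inside the 2-fold range. The ratio stayed above 0 in all 7 settings tried. Set against the all-gene median it was 1.20 as deposited and 1.33 after that rescaling.

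Mbp, the main basic protein of the myelin sheath, was listed at 0 in mNRPCs for all 15 of its transcripts. In retina it was at 6.45 FPKM, an estimated 151 fragments, and 3 fragments would have been 0.0971 FPKM in the mNRPC library. Its log2 ratio, −2.90, is likewise set by the added 1. The gene is known to have an upstream start that gives golli transcripts, found in neurons and immune cells too, and a downstream start that gives the classic myelin transcripts. The annotation places these starts 79.3 kb apart. In retina the 6 transcripts of the downstream start summed to 0.0109 FPKM, an estimated 0.10 fragments and 0.169% of the gene. The 2 transcripts of the upstream start were at 5.51 and 0.233 FPKM and held 88.9%, and 7 predicted transcripts with no annotated start held 10.9%.

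A single transcript therefore carried 85.3% of the Mbp signal of retina. Of its 4797 bases, 4384 belong to a long last exon, and 82.4% of its length lies inside the first intron of the classic transcripts. Reads from unspliced RNA of that intron would also be assigned to it, and whether its signal came from the upstream start was not tested. Transcripts that hold the last coding exon of classic Mbp, 7 of the 8 placed ones, summed to 0.243 FPKM in retina.

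**Figure D3:**
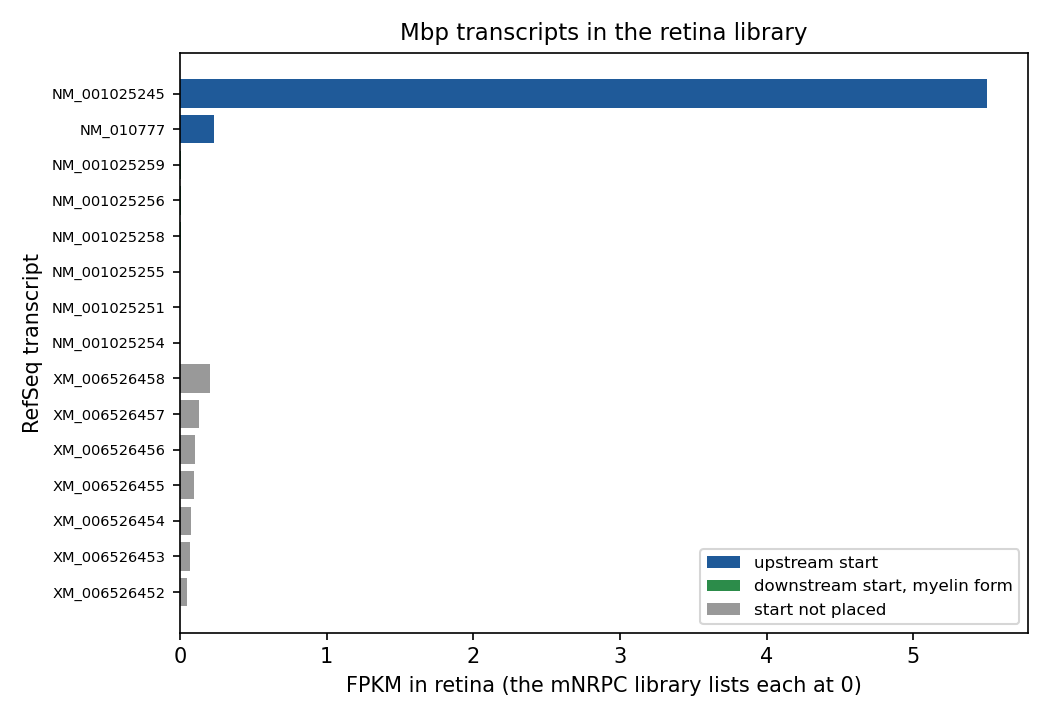
FPKM in the retina library (x axis) of each RefSeq transcript of Mbp (y axis), coloured by annotated start (blue upstream, green downstream, grey not placed), with 1 library and no error bars. One upstream-start transcript reaches 5.51 FPKM, and the 6 downstream-start transcripts have no visible bar.

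Mag, an adhesion protein of the inner face of the sheath, was listed at 0 in both libraries for each of its 3 transcripts, with limits of 0.187 FPKM in the culture against 0.248 in retina. A list of 17 further genes of oligodendrocytes and myelin had 1 higher, 3 lower and 13 between, with a median log2 ratio of 0. Only 6 of the 17 reached 1 FPKM in a library, so the median is that of genes with little or no signal. Over the genes with at least 5 FPKM it was 0.84, from 1 higher and 1 lower gene, each at 5 FPKM in only 1 library. With a pseudocount of 0.1 the lower genes numbered 6. Mog, a surface protein found only on myelinating cells, was listed at 0 in both libraries, and so were Opalin, Gjb1 and Nkx6-2, which are named here after their values were seen. Among the lower genes were Mal, at 0 in the culture against 2.58 FPKM in retina, and Enpp2, a secreted lipase also made by other cells, at 0.592 and 20.7 FPKM. Tspan2 was at 3.68 and 1.83 FPKM, inside the 2-fold range. The higher gene was Aspa, which splits N-acetylaspartate in oligodendrocytes and in other tissues, at 80.9 FPKM in the culture (814 fragments) against 0.868 in retina (6.61 fragments), a log2 ratio of 5.45.

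Schwann cells make myelin outside the central nervous system, and 4 of 8 of their genes reached 1 FPKM in mNRPCs against 3 in retina, with sums of 182.7 and 44.3 FPKM, and 2 were higher, 1 lower and 5 between. Pmp22, which many dividing and mesenchymal cells also express, made up most of the mNRPC sum with 146.3 FPKM, against 7.68 in retina. Prx, the gene of periaxin, a protein of peripheral myelin, was higher too, at 1.44 FPKM in the culture (51.3 fragments) against 0.0990 in retina (2.66 fragments). Sox10, which specifies both Schwann cells and oligodendrocytes, was at 0 FPKM in the culture against 0.0606 in retina, under 1 estimated fragment.

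Among 14 further genes of oligodendrocyte precursors, 1 was higher, 6 were lower and 7 lay between, with a median log2 ratio of −0.04. This median also reflects genes with little signal, since 9 of the 14 reached 1 FPKM in a library. Over the genes with at least 5 FPKM it was −3.74, but each of those reached 5 FPKM in only 1 library. That minimum thus picked genes that differ, so −3.74 is no typical ratio of the list. Pdgfra, the growth factor receptor of these precursors and of mesenchymal cells, was at 1.76 FPKM in the culture against 1.23 in retina. Beside Olig2, the fate genes Nkx2-2 and Gpr17 were listed at 0 in both libraries (these 2 are named after their values were seen). Several of the lower genes are also known from retinal neurons or glia, and the part of those cells in their levels was not tested. C1ql1, a secreted synaptic protein, was at 0.133 and 55.3 FPKM, the membrane protein gene Lhfpl3 at 0.0447 and 30.9, the proteoglycan gene Cspg5 at 0.848 and 23.8, and Sox8 at 0.246 and 7.86. Pcdh15, a cadherin of photoreceptors and hair cells, was listed at 0 in mNRPCs but reached 27.4 FPKM in retina. The higher gene was Vcan, the gene of the proteoglycan versican, at 20.2 FPKM in the culture against 0.752 in retina (log2 ratio 3.60).

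The proteoglycans act with partners in the matrix. Of 12 such genes 2 were higher, 4 were lower and 6 lay between, and their median log2 ratio was −0.80. The lower genes numbered 7 after rescaling to a common sum (median −1.41) and 8 with a pseudocount of 0.1 (median −2.29). Over the genes with at least 5 FPKM the median was −2.38, but all of those except Ptn reached 5 FPKM in only 1 library. That minimum thus picked mostly genes that differ, so −2.38 is no typical ratio of the list. Tnc, the gene of tenascin-C, was at 90.9 FPKM in the culture against 0.0943 in retina, an estimated 3.33 fragments. Tnc, Ptn and Vcan made up nearly all of the mNRPC sum of 162.9 FPKM. Ptn, the gene of pleiotrophin, a ligand of the Ptprz1 protein, was at 49.9 FPKM in the culture against 58.1 in retina. Mdk, the related ligand midkine, was listed at 0 in mNRPCs but reached 9.32 FPKM in retina. Cntn1, the contactin that binds Ptprz1, was at 0.0238 and 22.8 FPKM. Ncan, a relative of Bcan, was listed at 0 in mNRPCs but reached 0.902 FPKM in retina, and Acan was listed at 0 in both.

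Genes of radial glia and neural stem cells other than Fabp7 gave a mixed picture. Of 12 genes 7 were higher in mNRPCs, 3 were lower and 2 lay between, and the median log2 ratio was 2.11. The intermediate filament genes Vim and Nes, Sox2, Cd44, the gene of the hyaluronan receptor, and Tnc were among the higher genes, and Cd44 was at 99.3 FPKM in the culture against 2.54 in retina. Slc1a3, the glutamate transporter of radial glia and Müller cells, was at 0.0299 FPKM in the culture (0.818 fragments) against 44.8 in retina. Msi1, an RNA-binding protein of neural stem cells, was at 0.322 and 39.6 FPKM. Ptprz1, Bcan and Fabp7 were thus near 0 in mNRPCs together with Slc1a3, while Vim stood at 3138 FPKM there against 101 in retina and Sox2 at 230.6 against 18.5.

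**Figure D4:**
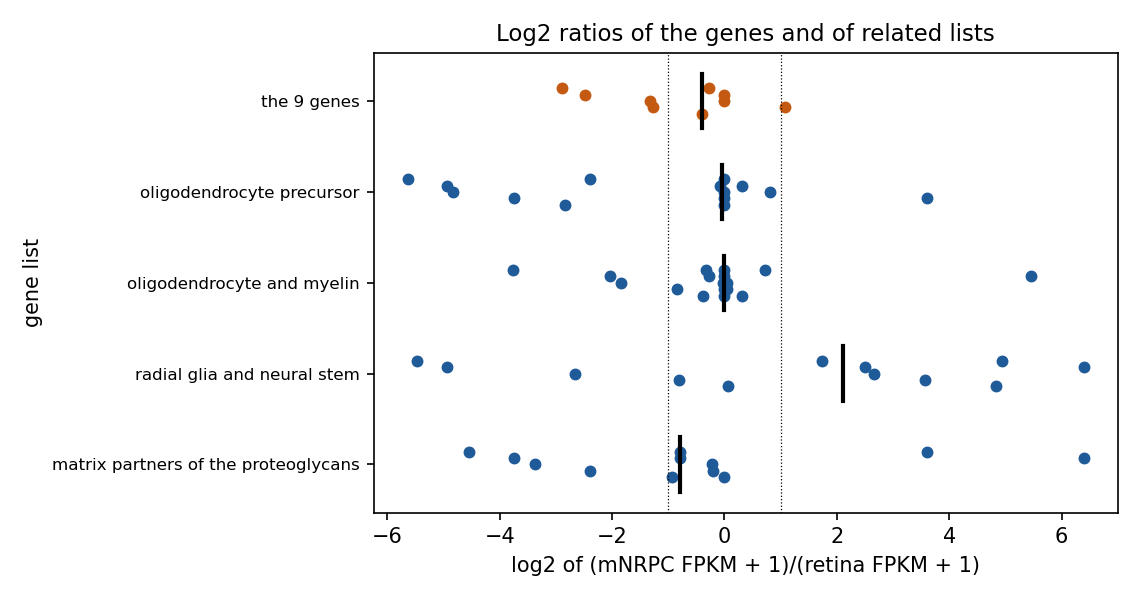
Log2 ratio of each gene (x axis, points) for the 9 genes (orange) and for each related list (blue), with the median of a list as a black bar and dotted lines at the 2-fold threshold. The medians run from −0.80 for matrix partners to 2.11 for radial glia and neural stem cells, and points lie on both sides of 0 in every list.

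**Figure D5:**
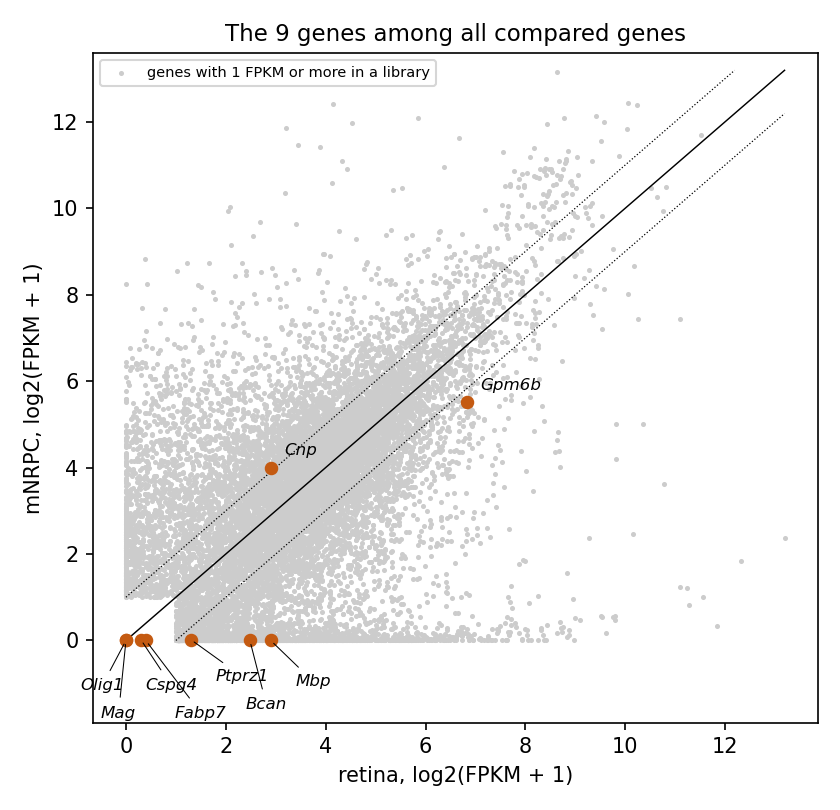
Level in mNRPCs (y axis) against retina (x axis) as log2(FPKM + 1) for the 13780 compared genes (grey) and the 9 genes (orange), with equality as a solid line and the 2-fold threshold as dotted lines. Gpm6b lies just under the lower threshold line, Cnp lies on the upper one, and the other 7 genes lie along the bottom edge.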

How the data were processed

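Total RNA of 1 mNRPC and 1 retina sample was sequenced. The deposited values were FPKM, computed by the authors for 106754 RefSeq transcripts. The study's methods name Bowtie 2 and eXpress, while the submitters' processing notes name TopHat2 2.0.10 and GRCm38.p3, and the sequencers named also differ, so the exact steps are uncertain. Accessions were matched without version to RefSeq (GRCm38.p6), then to GENCODE M21. Of the rows 69.6% matched, with 93.2% of mNRPC and 89.9% of retina FPKM, and rows of a symbol were summed. Values under 1e-06 were read as 0, and a 0 can be a failed estimate. Depth was estimated from the lowest FPKM values times transcript length over 6228 rows of at least 1500 bp, and limits of 3 fragments and 95% conditional binomial intervals cover counting error only. Genes were given the FPKM-weighted mean length of their annotated transcripts. The steps were tested on simulated data. Python 3.11.15, pandas 2.3.3 and scipy 1.17.1 were used.

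The 9 genes and the lists were chosen with earlier results of these data known. Named were the 9 genes and their relatives and, from each list, the first 2 genes and up to 6 with the highest FPKM, apart from genes said to be named after their values were seen. From the marker lists of other cell types, genes were named after the values were seen, among them defining genes and those that made up most of a sum. Some genes of the lists are not reported here by name. Of the members 5 reached the minimum of 1 FPKM in a library. Alternatives were another pseudocount, minimum, threshold, library scaling and choice of rows. The start-site sums were added after the data were seen.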

Additional observations from a re-analysis of the deposited data

How the results depend on the processing

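With a pseudocount of 0.1, 2 of the 9 genes lay between the thresholds and the median log2 ratio of the 9 was −1.51, since ratios of low values then spread further. With low values set to 3 fragments and no pseudocount this median was −1.35. The number of higher genes among the 9 went from 1 to 0, through Cnp, after rescaling to a common sum, with trimmed mean scaling (log2 ratio of Cnp 0.98), with curated rows only, with versioned accessions and with upper quartile scaling (0.97). At a log2 threshold of 2 there were 0 higher, 2 lower and 7 between, and 1547 higher and 1942 lower genes of the whole table, fewer by construction. Rescaling to a common sum raised the lower genes of the table to 6349 and moved the median of all genes from −0.12 to −0.68. Relative to that median Gpm6b was at −1.21 as deposited and −1.16 after rescaling. Its upstream-start transcripts alone were at −0.57 as deposited, −0.69 with trimmed mean or upper quartile scaling and −1.08 after rescaling to a common sum, the last of these past the threshold. Of 54 values of the 9 genes under the alternatives, 35 stayed within counting error, 19 moved and 0 changed sign, which for Olig1 and Mag, at 0 in both libraries, is no sign of stability. The estimated depth was 6.34e+06 and 4.83e+06 fragments with transcripts of at least 500 bp, and 6.56e+06 and 5.23e+06 with 2500 bp. Depth limits Fabp7, Olig1 and Mag in both libraries and Ptprz1, Bcan, Cspg4 and Mbp in mNRPCs. No paired analysis was possible because there is a single library of each kind.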

Other observations

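Marker genes of microglia and endothelium were read in the same way. Of the microglial genes, Cx3cr1, P2ry12 and Aif1, which define microglia, were listed at 0 in mNRPCs but reached 0.428, 0.0148 and 0.0950 FPKM in retina, the last 2 under 1 estimated fragment. Of 6 endothelial genes none reached 1 FPKM in mNRPCs and 5 did in retina, with sums of 1.03 and 47.8 FPKM. Cldn5, a junction protein of vessels, was listed at 0 in mNRPCs but reached 6.04 FPKM in retina.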
